A study of Mus musculus with 3 samples.

Results

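The 9 genes described here encode receptors that pass a costimulatory or an inhibitory signal to T cells: Ctla4, Icos, Cd28, Pdcd1, Tigit, Lag3, Havcr2, Cd226 and Cd96. They were picked by name, with earlier results of these data known. Each was given the ChIP-seq peaks whose midpoint lay inside its annotated body in GENCODE M21. All 9 had peaks, 118 in total, out of 11946 genes with a peak in the table, and all 9 were among the 10886 genes with enough signal to be compared.

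Trimethylation of lysine 36 of histone H3 (H3K36me3) was profiled by chromatin immunoprecipitation and sequencing in regulatory T (Treg) cells of spleen and of large intestine (LI), taken from unchallenged C57BL/6 mice. The animals carried Foxp3-YFP, in which the Foxp3 promoter drives a Cre-YFP fusion protein, and CD3+CD4+YFP+ cells were sorted, pooled over 7 males and 7 females. No age was given for this pool beyond the young adult age that the methods state for mice of the study in general, no gene was deleted, and no treatment was applied to either group. Each tissue gave 1 library from 1 µg of chromatin, and an input library from splenic Treg chromatin was also made but has no column in the table, so it was not analysed here.

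With 1 library per tissue there was no replicate and no test. Differences between the libraries are given as measured, with an approximate 95% interval that covers counting error only and none of the variation between mice, sorts or immunoprecipitations.

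H3K36me3 is written by Setd2, which travels with elongating RNA polymerase II, and the mark builds up over the bodies of transcribed genes, most of all toward their 3′ ends. A T cell that meets antigen also reads a second signal through the receptors above: CD28 and ICOS strengthen the response, whereas CTLA-4, PD-1, TIGIT, LAG-3 and TIM-3 restrain it. Treg cells carry several of these receptors at their surface, and CTLA-4 is central to how they suppress other cells.

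Values are the mean coverage of a peak in RPKM, the reads per kilobase scaled to the mapped reads of the library, and the signal of a gene is the sum over its peaks. The log2 ratio of LI over spleen was taken after adding 0.5 RPKM to each sum and scaling both libraries to the same total over all 120910 peaks, which shifted every ratio by 0.046. A value of 0 therefore means that a gene held the same share of the total in both libraries, and 1 means a 2-fold difference. The inferred depth was about 29600000 mapped reads for spleen and 38100000 for LI. Genes were compared where both libraries together gave at least 20 RPKM.

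The libraries showed the marks of Treg cells. Foxp3, the defining transcription factor, had 9 peaks that summed to 132.5 RPKM in spleen and 156.3 in LI, and Cd3e, Cd3g, Cd4, Lck, Il2ra and Ikzf2 also had peaks. These markers were not all level: the log2 ratio was -0.55 for Ikzf2, which encodes Helios, -0.41 for Cd3e and -0.28 for Cd3g, each with an interval below 0. No peak lay in Cd8a, in the B cell gene Ms4a1, in the NK cell genes Ncr1 and Klrb1c, in the myeloid genes Lyz2, Itgam and Cd14 or in the epithelial genes Cdx2, Krt8 and Krt20. The remaining markers of other cells were Cd8b1 (21.1 RPKM in spleen, 9.46 in LI), Cd79a (47.2 and 29.8), Pax5 (4.05 and 9.91), Csf1r (14.7 and 16.3), Epcam (25.3 and 47.2) and Vil1 (4.63 and 12.6). Their part in the differences below was not tested. In sorted bulk cells, fewer cells carrying the mark on a gene and less of the mark per cell cannot be told apart.

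The receptor genes did not move as a block. In order of their ratio, 7 of the 9 were higher in LI: Havcr2, Lag3, Tigit, Icos, Ctla4, Pdcd1 and Cd28. With peaks weighted by their length the count was 6, without Cd28. Cd226 and Cd96 were higher in spleen. Havcr2, Lag3 and Tigit were over 2-fold higher in LI, 3 of 9 members or 33.3%, where 3.42% of all genes compared passed that fold. By the strongest peak of each gene alone, 2 members passed it, and Lag3, at 0.89, did not. None of the 9 was over 2-fold higher in spleen, against 2.04% of all genes. The median log2 ratio was 0.59 over the 9 members and 0.00 over all genes, whose quartiles were -0.20 and 0.24. Because the members were chosen with earlier results of these data known, these and later comparisons with all genes are descriptive only.

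**Figure D1:**
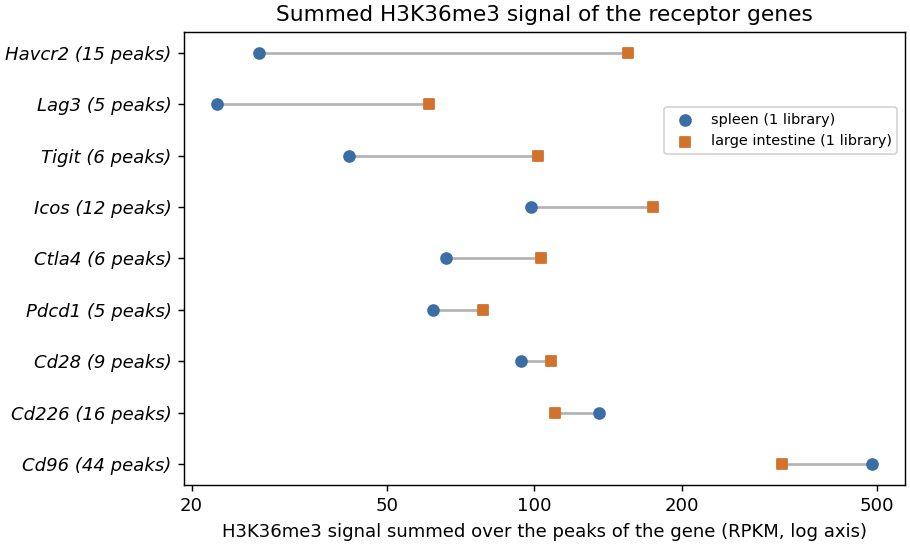
H3K36me3 signal summed over the peaks of each receptor gene (RPKM, log axis) in the 1 spleen library (circles) and the 1 LI library (squares), ordered by their ratio. The largest gap belongs to Havcr2, from 27.5 RPKM in spleen to 155.2 in LI, while Cd96 and Cd226 are the genes whose spleen value lies to the right.

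Counting intervals separated most but not all of these values from 0. The interval lay above 0 for 5 members (Ctla4, Icos, Tigit, Lag3 and Havcr2), as it did for 17.9% of all genes, and below 0 for 2 (Cd226 and Cd96), against 15.2% of all genes. It spanned 0 for Cd28 and Pdcd1. A plain direction carried less information, since 50.7% of all genes were higher in LI. Only the interval of Havcr2, among these 9, lay wholly past 2-fold.

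The reference sequences of 5 short peaks are given as examples, and they are not always the peaks with the largest difference of their gene. For the 3 genes over 2-fold higher in LI, for Ctla4, and for Cd96 as the gene furthest toward spleen, the peak shown is the one with the largest ratio in the direction of the gene among peaks of at most 300 bp that touched no exon and had at least 1 RPKM in both libraries. All 5 lie in introns and are written 5′ to 3′ on the sense strand of the gene, from the mouse reference GRCm38 (mm10), with CpG dinucleotides in capitals.
Havcr2 peak 5, chr11:46460920-46461160: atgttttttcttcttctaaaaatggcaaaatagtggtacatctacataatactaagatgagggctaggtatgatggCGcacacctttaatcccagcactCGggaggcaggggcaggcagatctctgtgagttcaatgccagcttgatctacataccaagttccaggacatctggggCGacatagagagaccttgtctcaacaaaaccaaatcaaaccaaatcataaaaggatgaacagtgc
Lag3 peak 3, chr6:124906106-124906327: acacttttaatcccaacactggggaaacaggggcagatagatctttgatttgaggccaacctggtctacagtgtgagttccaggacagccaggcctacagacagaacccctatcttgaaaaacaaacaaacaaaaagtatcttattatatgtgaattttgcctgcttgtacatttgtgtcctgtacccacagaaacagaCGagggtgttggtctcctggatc
Tigit peak 1, chr16:43662690-43662899: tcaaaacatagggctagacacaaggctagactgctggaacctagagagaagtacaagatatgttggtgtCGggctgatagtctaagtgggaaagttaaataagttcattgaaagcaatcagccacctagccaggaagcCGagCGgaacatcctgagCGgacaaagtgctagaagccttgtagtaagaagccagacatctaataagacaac
Ctla4 peak 1, chr1:60895372-60895607: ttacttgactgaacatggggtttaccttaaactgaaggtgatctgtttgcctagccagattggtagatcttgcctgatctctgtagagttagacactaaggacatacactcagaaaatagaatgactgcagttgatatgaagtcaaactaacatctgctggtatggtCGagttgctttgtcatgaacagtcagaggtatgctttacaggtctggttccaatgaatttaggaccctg
Cd96 peak 2, chr16:46117071-46117370: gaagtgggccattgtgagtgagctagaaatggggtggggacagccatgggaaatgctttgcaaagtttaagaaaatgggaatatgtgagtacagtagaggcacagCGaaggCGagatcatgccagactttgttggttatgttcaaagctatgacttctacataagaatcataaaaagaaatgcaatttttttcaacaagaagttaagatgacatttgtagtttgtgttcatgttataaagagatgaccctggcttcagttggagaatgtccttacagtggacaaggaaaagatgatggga

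These stretches held few CpG dinucleotides. There were 3 in the Havcr2 peak, 1 in the Lag3 peak, 4 in the Tigit peak, 1 in the Ctla4 peak and 2 in the Cd96 peak, at GC contents of 43.6%, 44.1%, 45.2%, 41.5% and 40.0%. The middle of all peaks was 46.5% GC. The Havcr2 sequence carried 1.13 RPKM in spleen and 12.4 in LI, the Lag3 sequence 1.35 and 12.9, and the Tigit sequence 2.91 and 13.1. The Ctla4 sequence carried 2.96 and 11.9, and the Cd96 sequence ran the other way, at 9.90 in spleen and 2.23 in LI. The interval of the log2 ratio spanned 0 for the Tigit peak (-0.03 to 3.93) and for the Ctla4 peak (-0.08 to 3.67). Single peaks of this length rest on few reads, so the sums over whole genes below are the firmer values.

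Cd28, Ctla4 and Icos are neighbours on chromosome 1 and arose from a common ancestral gene. Their bodies lie in that order, all on the plus strand, within 283.5 kb. Only 2 peaks lay in the 113.6 kb between Cd28 and Ctla4 and 3 in the 62.1 kb between Ctla4 and Icos. The ratio differed along this stretch, from near 0 at Cd28 to clearly above it at Icos.

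Cd28, the receptor for CD80 and CD86 that delivers the main costimulatory signal to T cells, spans chr1:60716800-60773359 and had 9 peaks covering 32.8% of its body. They summed to 93.8 RPKM in spleen and 108.1 in LI, a log2 ratio of 0.16 (interval -0.09 to 0.41). No peak lay in the first 2 of 5 equal segments of the gene. The longest peak, 9607 bp near the 3′ end, held 20.7 RPKM in spleen and 19.9 in LI, and 5 of the 9 peaks were higher in LI. The excess in LI came from short peaks. The 4 peaks under 1 kb summed to 22.9 RPKM in spleen and 39.2 in LI, a log2 ratio of 0.72, whereas the 5 longer ones gave 70.9 and 68.9, or -0.09. Weighting each peak by its length also turned the sign, to -0.07, so no direction is given for Cd28.

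Ctla4 encodes the inhibitory receptor that takes CD80 and CD86 away from CD28, and it is among the best-known targets of Foxp3. Its annotated body, chr1:60887000-60915832, held 6 peaks with 66.1 RPKM in spleen and 103.2 in LI. The log2 ratio was 0.59 (interval 0.31 to 0.88), and 5 of the 6 peaks were higher in LI. Here too the length of the peaks mattered. The longest pair, side by side at the 3′ end, held most of the signal and nearly balanced: 24.7 RPKM in spleen and 32.1 in LI for peak 5, then 26.9 and 24.3 for peak 6, which reaches the 3′ UTR. Together they gave a log2 ratio of 0.08.

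The other 4 peaks of Ctla4, all under 1 kb and all free of exons, went from 14.5 RPKM in spleen to 46.8 in LI, a log2 ratio of 1.61. Peaks 1 and 2, at 2.96 and 2.04 RPKM in spleen against 11.9 and 10.6 in LI, belong to the annotated body only through a longer non-coding transcript, and they lie upstream of the start of the main transcript. With the RefSeq body, which leaves them out, the log2 ratio of the gene was 0.35. Weighted by length, the whole gene gave 0.16. The direction was the same in each case, and its size depended on how much the short peaks counted.

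Icos encodes the inducible costimulator, which binds ICOS ligand and is high on activated and effector Treg cells. The gene, at chr1:60977927-61000320, was covered over 70.8% of its body by 12 peaks. All 12 were higher in LI, and their sum was 98.3 RPKM in spleen and 174.5 in LI, a log2 ratio of 0.78 (interval 0.53 to 1.03). All 3 of its peaks of at least 1 kb were higher in LI, with a combined log2 ratio of 0.57. Peak 12, of 7568 bp at the 3′ end, held 16.5 RPKM in spleen and 21.4 in LI, and peak 10, of 2274 bp in mid-gene, held 9.02 and 21.4. Peak 1, the first of the gene, had the highest ratio, 1.81, from 3.92 RPKM to 15.5.

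With the body of Icos cut into 5 equal segments, all were higher in LI. From 5′ to 3′ their log2 ratios were 1.02, 0.65, 1.16, 0.26 and 0.32, so the last 2 had the smallest differences. Set against Cd28, the ratio of Icos was higher by 0.62 (interval 0.27 to 0.97), and that of Ctla4 by 0.44 (0.06 to 0.81). Icos and Ctla4 differed by 0.19, with an interval of -0.19 to 0.57 that spans 0. Raph1, the nearest gene with peaks before Cd28, lies 149.7 kb away and was at 93.2 RPKM in spleen and 193.3 in LI, a log2 ratio of 1.00 on the far side of the level gene Cd28. Ino80d, far beyond Icos, was level, at 505.0 and 503.3 RPKM.

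**Figure D2:**
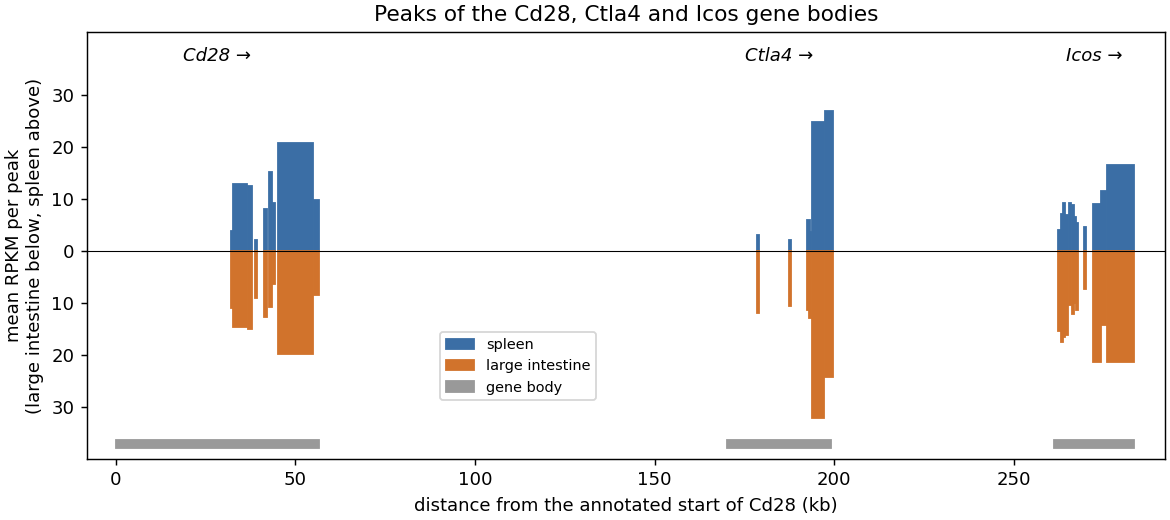
Mean RPKM of each peak in the Cd28, Ctla4 and Icos bodies against the distance from the annotated start of Cd28 (kb), with spleen drawn above the zero line, LI below it and gene bodies as grey bars at the bottom; arrows give the direction of transcription and peaks narrower than 0.6 kb are drawn at that width. The 9607 bp peak of Cd28 is nearly the same height on both sides, while every peak of Icos reaches further on the LI side.

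Pdcd1 encodes PD-1, the inhibitory receptor for PD-L1 and PD-L2, and lies further along chromosome 1, at chr1:94038305-94052553 on the minus strand. Its 5 peaks covered 53.3% of the body and summed to 62.1 RPKM in spleen and 78.7 in LI. The log2 ratio of 0.29 had an interval of -0.0039 to 0.59, whose lower end falls just under 0. One peak of 5505 bp dominated, with 23.8 RPKM in spleen and 29.8 in LI, a log2 ratio of 0.27. Of the 4 shorter peaks, 2 were higher in LI and 2 in spleen. D2hgdh, the nearest gene with peaks on its left, lies 186 kb away and was at 114.6 and 118.7 RPKM. Fam174a, to the right of Pdcd1 but 1261 kb away, was at 28.2 and 20.9. The interval of its log2 ratio, -1.27 to 0.33, spans 0.

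Tigit, Cd96 and Cd226 encode receptors that share ligands. All bind CD155, encoded by Pvr, and CD226 gives an activating signal while TIGIT inhibits. CD96 is less settled in its role and is usually grouped with the inhibitory receptors. The genes for TIGIT and CD96 lie on chromosome 16 and that for CD226 on chromosome 18. Among these 3, the mark was higher in LI on Tigit and higher in spleen on Cd96 and Cd226.

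Tigit (chr16:43648867-43664146, minus strand) had the densest coverage of the 9, with 6 peaks over 73.7% of its body. The signal was 41.9 RPKM in spleen and 101.6 in LI, a log2 ratio of 1.22 (interval 0.91 to 1.53). All 6 peaks were higher in LI, long ones included. The longest, of 5599 bp, went from 9.97 to 19.4 RPKM, and the next, of 2767 bp, from 7.39 to 20.6. Peaks of at least 1 kb gave a log2 ratio of 1.15 and shorter ones 1.29. The intronic sequence printed above is its first peak, with the highest ratio of the gene, 1.95.

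The difference at Tigit was greatest in the first 2 of 5 equal segments of the body, at 1.64 and 1.38, and smallest in the fourth, at 0.40. Zbtb20, whose body lies 6.27 kb to the left of Tigit, had 3 peaks, at 37.2 RPKM in spleen and 26.1 in LI. Its log2 ratio of -0.55 had an interval of -1.12 to 0.03, which spans 0. The ratio of Tigit exceeded that of Zbtb20 by 1.77 (interval 1.11 to 2.42). A further 2 peaks within 5 kb past the 3′ end of Tigit together went from 8.88 to 21.8 RPKM.

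Cd96 had the most peaks, 44 across chr16:46035657-46120251 on the minus strand, over 28.7% of the body. They summed to 488.4 RPKM in spleen and 320.6 in LI. The log2 ratio was -0.65 (interval -0.83 to -0.48), and 38 of the 44 peaks were lower in LI, 14 of them by over 2-fold. Each of the 5 peaks of at least 1 kb was lower in LI, and their combined log2 ratio of -0.63 nearly equalled the -0.65 of the shorter ones. Peak 9, the longest at 2050 bp, held 16.4 RPKM in spleen and 9.37 in LI.

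The lower signal of Cd96 in LI ran along the whole gene. Its 5 equal segments, from 5′ to 3′, gave log2 ratios of -0.67, -0.67, -1.03, -0.57 and -0.58. The adjacent gene Plcxd2, 25.4 kb away, was lower in LI by a similar amount, from 376.5 to 234.1 RPKM, and its ratio differed from that of Cd96 by 0.08 (interval -0.19 to 0.35). Trat1, on the other side but 2611 kb away, was also lower in LI, at 47.5 and 21.7 RPKM. By contrast Tigit, on the same chromosome, exceeded Cd96 by 1.87 (interval 1.52 to 2.23).

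Cd226 (chr18:89176967-89272229) had 16 peaks that covered 7.77% of its body, the thinnest coverage of the 9. The sum was 135.3 RPKM in spleen and 110.3 in LI, a log2 ratio of -0.34 (interval -0.66 to -0.02). Of the 16 peaks, 13 were lower in LI, 4 by over 2-fold, and 1 was over 2-fold higher there. The strongest peak, over a coding exon, was among the 3 that were higher in LI, with 10.7 RPKM in spleen and 15.0 in LI, a log2 ratio of 0.43. After correction for GC content the ratio of the gene was -0.08. Of the nearest genes with peaks on either side, Rttn, 46.0 kb away, had a log2 ratio of -0.18 and Tmx3, 1238 kb away, one of -0.08. Cd226 exceeded Cd96 by 0.31, with an interval of -0.05 to 0.68, and fell below Tigit, which exceeded it by 1.56 (interval 1.11 to 2.01).

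Havcr2 and Lag3 were the 2 members with no peak of 1 kb or more, and they had the highest ratios. Havcr2 encodes TIM-3, an inhibitory receptor of activated T cells and Treg cells that is also found on myeloid cells. Its 15 peaks, over 26.1% of chr11:46454935-46481255, summed to 27.5 RPKM in spleen and 155.2 in LI. The log2 ratio was 2.43 (interval 1.87 to 2.99), a 5.40-fold difference, and ranked 11 of 10886 genes. With 0.5 RPKM added, each of the 15 peaks was over 2-fold higher in LI as measured. The intervals of peaks 9, 10, 12 and 14 spanned 0.

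The spleen values of Havcr2 were at the bottom of the scale. Its peaks ranged from 0 to 4.50 RPKM in spleen and from 6.78 to 14.8 in LI. All 15 lay under 5 RPKM in spleen, where 8.05% of all peaks did, and none did in LI. In which library these peaks were called is not known, and any called only in LI would by their inclusion favour a high ratio. Peak 12 is listed at 0 in spleen and at 6.78 in LI, and no ratio is given for it. In reads of 200 bp, the spleen signal of the whole gene amounted to about 40.1 reads and that of LI to 273.4.

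The ratio of Havcr2 stayed past 2-fold along the body, at 2.19, 2.75 and 2.06 in the first 3 of 5 equal segments and 2.07 in the last, with the fourth the highest. The single peak within 5 kb past its 3′ end followed, at 1.25 RPKM in spleen and 9.16 in LI. Med7, 12.2 kb to its left, was higher in LI by less, from 12.4 to 21.4 RPKM, and Havcr2 exceeded it by 1.72 (interval 0.87 to 2.56). Of the myeloid markers, Lyz2, Itgam and Cd14 had no peak, and the single peak of Csf1r was near level at the values given above. Whether other cells added to the signal of Havcr2 was not tested.

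**Figure D3:**
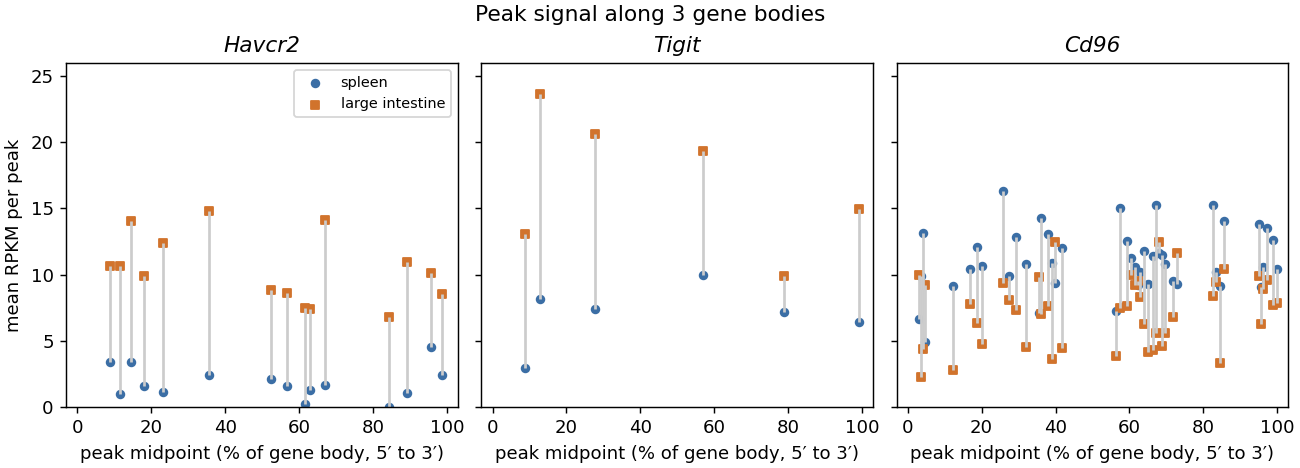
Mean RPKM of each peak of Havcr2, Tigit and Cd96 in spleen (circles) and LI (squares), by the position of the peak midpoint along the gene body from 5′ to 3′ (percent). Havcr2 peaks stay at or below 4.50 RPKM in spleen and at or above 6.78 in LI, Tigit has its highest LI peak near the 5′ end, and most peaks of Cd96 are higher in spleen.

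Lag3 encodes an inhibitory receptor that binds MHC class II and stands beside Cd4, to which it is related. Its body at chr6:124904361-124911705, on the minus strand, is the shortest of the 9 and held 5 peaks over 21.1% of it. The sum was 22.5 RPKM in spleen and 61.0 in LI, a log2 ratio of 1.37. The interval was wide, 0.68 to 2.06, since the spleen signal amounted to about 22.3 reads. All 5 peaks were higher in LI, 3 by over 2-fold. Peak 1, over a coding exon, went from 1.07 to 9.94 RPKM, and peak 2, the strongest, from 8.57 to 16.9.

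Cd4, only 16.1 kb from Lag3, was level between the tissues, at 73.9 RPKM in spleen and 83.2 in LI, a log2 ratio of 0.13. The ratio of Lag3 exceeded that of Cd4 by 1.24 (interval 0.47 to 2.02). Ptms, 1.98 kb away on the other side, had a single peak at 12.1 and 13.6 RPKM.

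Without a GC correction, the peaks of the 9 genes, taken one by one, split almost evenly. Of the 118, 60 or 50.8% were higher in LI, against 48.9% of all peaks in the table. Over 2-fold higher in LI were 33 of them, where 9.0% of all peaks were. Another 18 were over 2-fold higher in spleen, where 9.65% of all peaks were. Havcr2 alone gave 15 of the 33, with its peak listed at 0 in spleen among them. Cd96 alone gave 14 of the 18, and peaks of the same gene are not replicates. The even split hides the division by gene, since Cd96 and Cd226 brought 60 of the 118 peaks. Icos, Tigit, Lag3 and Havcr2 had every peak higher in LI, 4 of the 9, while 5.03% of the 6282 genes with at least 5 peaks did.

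**Figure D4:**
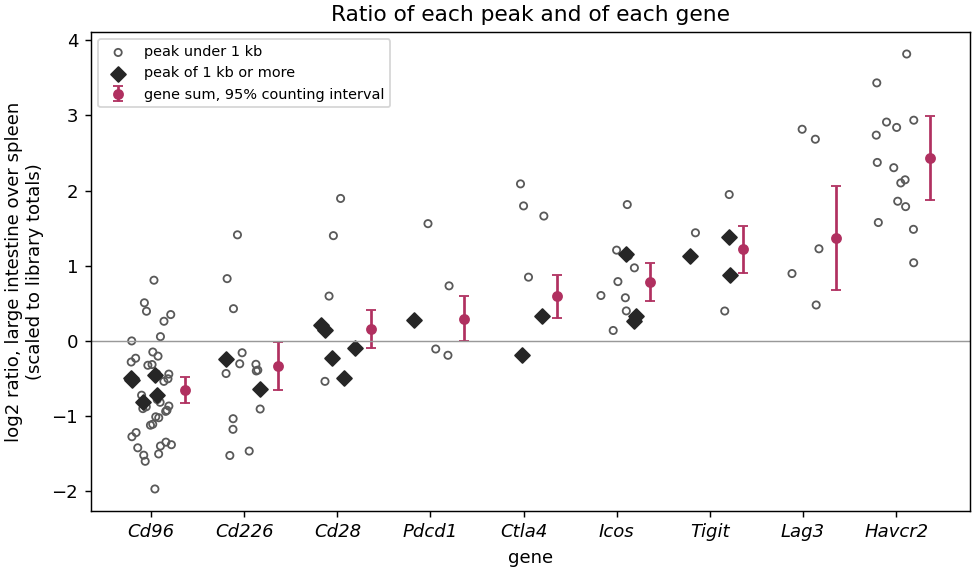
Log2 ratio of LI over spleen, scaled to library totals, for each peak of the 9 genes, with open circles for peaks under 1 kb, diamonds for longer ones and a coloured point with its 95% counting interval for the gene sum. The 4 short peaks of Ctla4 lie above its long ones, and all peaks of Icos, Tigit, Lag3 and Havcr2 lie above 0; the highest Havcr2 point is the peak listed at 0 in spleen, placed there by the added 0.5 RPKM.

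Most of this signal was intronic. The midpoint lay in an intron for 106 of the 118 peaks and in an exon or UTR for 12, and 27 touched an exon. No member had a peak within 5 kb upstream of its annotated body, other than Lag3, where that peak belongs to Ptms. Only 3 peaks lay within 1 kb of an annotated start, 2 in Ctla4 and 1 in Lag3, and all were higher in LI. Exonic midpoints did not go with one direction within genes. In Havcr2 the exonic peaks gave a log2 ratio of 1.32 and the intronic ones 2.66, while in Tigit they gave 1.34 and 1.14.

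The level of the mark, as the length-weighted mean over the peaks of a gene, ordered the genes differently from the ratio. In spleen Ctla4 led with 21.7 RPKM, then Pdcd1 with 20.3 and Cd28 with 16.2. Icos followed at 12.1, Cd96 at 11.8, Cd226 at 9.13 and Tigit at 8.50, and the lowest were Lag3 at 4.86 and Havcr2 at 1.97. In LI Ctla4 led again at 25.9, just ahead of Pdcd1, with Tigit at 18.9, Icos at 18.4 and Cd28 at 16.4 next. Lag3 at 12.1 and Havcr2 at 10.5 passed Cd96 at 7.53 and Cd226 at 7.41, which were the lowest in that library. The range among the 9 was narrower in LI than in spleen.

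Low values fell on different genes in each library. In LI, 12 of the 44 peaks of Cd96 and 4 of the 16 of Cd226 lay under 5 RPKM, against 8.52% of all peaks, and none did in the other 7 genes. In spleen 3 of 6 peaks of Ctla4 and 3 of 5 of Lag3 were under 5 RPKM, besides all of Havcr2. The table holds the union of peaks called in either library and does not say in which one a peak was called. A peak called in only 1 library tends to be higher there, so its inclusion itself can favour the ratio. Among all peaks, those under 1 kb spread more, with an SD of the log2 ratio of 0.88 against 0.39 for longer ones.

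GC content moved with the ratio across the whole table, by 0.32 on the log2 scale for each 10 points of GC. The median GC content of member peaks ran from 40.7% for Cd28 to 54.0% for Lag3. With a correction for this trend, Lag3 stood at 1.24, Havcr2 at 2.51, Tigit at 1.29, Icos at 0.94 and Cd96 at -0.54. Ctla4 came to 0.76, Cd28 to 0.36 and Pdcd1 to 0.19. The directions of the gene sums were those without the correction. The share of the 118 member peaks higher in LI was 58.5% with the correction and 50.8% without it. The share over all peaks with the correction was not computed.

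**Figure D5:**
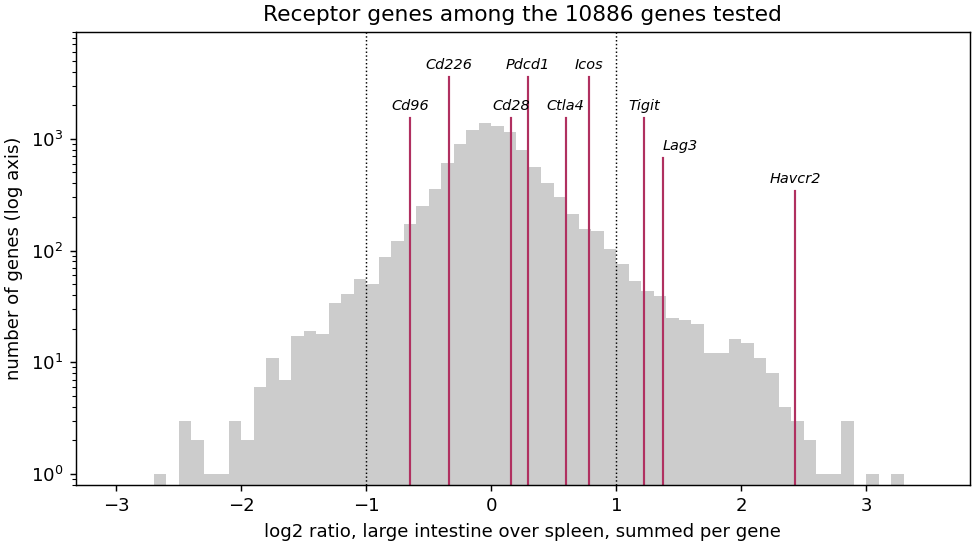
Number of genes (log axis) by log2 ratio of LI over spleen of their summed signal, for the 10886 genes compared, with the 9 receptor genes as vertical lines and 2-fold as dotted lines. Havcr2 at 2.43 stands far into the right tail, Lag3 and Tigit lie just past the 2-fold line, and Cd96 at -0.65 is the member furthest to the left.

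Other receptors of the same kind were more often higher in spleen. Of 19 further co-signalling receptors, 14 could be compared, with a median log2 ratio of -0.18. Of the 14, 4 were higher in LI and 10 in spleen, where 50.7% of all genes were higher in LI. The interval lay below 0 for 6 and above 0 for 2. In each direction 1 was past 2-fold, against 3.42% of all genes in LI and 2.04% in spleen. Klrg1, an inhibitory lectin-like receptor of differentiated Treg cells, was the 1 past 2-fold in LI, from 26.3 RPKM in spleen to 72.3 in LI (log2 ratio 1.40). Cd101 came next at 0.44. Btla, the inhibitory receptor for HVEM, was at 160.9 RPKM in spleen and 63.1 in LI, a log2 ratio of -1.39, with none of its 12 peaks higher in LI. Slamf6, a receptor of the SLAM family, was at -0.58.

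Ligands of the 9 receptors are mostly made by antigen-presenting cells, and 9 of 16 had a peak here. Of these, 7 were higher in LI and 2 in spleen, with a median of 0.16, where 50.7% of all genes were higher in LI. The interval lay above 0 for 2 and below 0 for 1. Cd80, the ligand shared by CD28 and CTLA-4, had 2 peaks that summed to 3.17 RPKM in spleen and 27.1 in LI, a log2 ratio of 2.86 with a very wide interval of 0.63 to 5.09. Nectin1 was at 8.57 and 27.3 RPKM (1.57, interval 0.36 to 2.78). Cd80 and Nectin1 reached the minimum of 20 RPKM through LI, so their inclusion itself favoured a high ratio. Both are among the 7 counted as higher in LI. Pvr, which encodes CD155, was at 179.2 and 160.4 RPKM (-0.20), and Icosl at 47.5 and 44.7 (-0.13). No peak lay in Cd86.

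None of the signalling partners downstream of the receptors was past 2-fold, which is near the share over all genes. That share was 3.42% in LI and 2.04% in spleen. All 20 were compared, 9 higher in LI and 11 in spleen, with a median of -0.06, where 50.7% of all genes were higher in LI. The lowest was Prkcq, the protein kinase C that relays CD28 signals, which went from 856.5 RPKM in spleen to 528.4 in LI (log2 ratio -0.74) with 2 of 64 peaks higher in LI. Pik3cd, the catalytic subunit of the phosphoinositide 3-kinase of lymphocytes, was at -0.43. Malt1, the protease of the pathway to NF-κB, was the highest at 0.40, with 21 of 24 peaks higher in LI, and Ppp2ca stood at 0.23.

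Among genes for the trafficking of CTLA-4, 7 of 8 had a peak, with a median of 0.08. Of these, 4 were higher in LI and 3 in spleen, near the 50.7% of all genes that were higher in LI. Rab11a, of recycling endosomes, was the highest at 0.35, and Ap1m1, a clathrin adaptor subunit, was at 0.19. Def6 was at -0.26. The lowest was Trat1, a transmembrane adaptor that helps bring CTLA-4 to the surface, at -1.16. Trat1 is also the neighbour of Cd96 named above.

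The study also drew up lists of genes that mark colonic, splenic, RORγt+ and ST2+ Treg cells from expression data of other samples. The colonic list held 5 of the members, Ctla4, Icos, Tigit, Lag3 and Havcr2. The interval of each of these lay above 0, as it did for 17.9% of all genes compared. The splenic list held 1, Cd96. Lag3, Havcr2 and Cd226 were on the RORγt+ list, and none of the 9 was on the ST2+ list. Cd28 and Pdcd1 were on none of the 4. The share of all genes compared on each list was not computed, so these counts have no background here.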

How the data were processed

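Per the labels, reads were single-end, 75 nt, and the submitters' processing notes name FastQC, Bowtie2, MACS2, bedtools and the mm10 build. The authors called peaks in each library against input, merged them, and deposited 1 table with the mean RPKM coverage of each merged peak for spleen and LI. Although it is labelled as counts, the values are not whole numbers. In both libraries, the low values of peaks lying on 20 bp bins were whole multiples of 1 read in 1 bin (1.69 RPKM for spleen, 1.31 for LI), from which depth was inferred.

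Here, peaks were assigned to GENCODE M21 bodies by midpoint, and summed log2 ratios used a pseudocount of 0.5 RPKM, scaling to column totals and a minimum of 20 RPKM over both libraries. Intervals (95%) take 1 read as 200 bp, a value that was set and not measured. They were run on simulated data drawn with that same value and with counting error only. Such data cannot check the value or any other source of error. Python 3.11.15, numpy 2.4.6, pandas 2.3.3 and matplotlib 3.10.9 were used. Sequences came from GRCm38.p6 of RefSeq.

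Named genes were all 9 members, their nearest protein-coding neighbours with a peak, and the 2 highest and 2 lowest genes of each list. Cd86 and the marker genes are named besides. Members and lists were chosen with earlier results of these data known. Alternatives changed the scaling, pseudocount, filter, summing, peak assignment and GC correction.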

Additional observations from a re-analysis of the deposited data

How the results depend on the processing

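Of 124 single-member ratios recomputed under alternative processing, 114 kept their direction and stayed within the counting interval of the reported value, 6 left that interval in the same direction and 4 changed sign. The sign of Cd28 turned with length-weighted sums (-0.069), with its strongest peak alone (-0.10) and with peaks of at least 1 kb (-0.086), and that of Cd226 with its strongest peak alone (0.43). Ctla4 ranged from 0.08 to 0.96. Restricting to peaks of at least 1 kb, a choice made after seeing the data like the RefSeq bodies and leaving out the strongest peak, left 7 members, of which 4 were higher in LI and 1 was over 2-fold higher there. Havcr2 and Lag3 have no such peak. Genes over 2-fold higher in LI numbered 372, but 623 without the filter and 70 of 4323 with at least 200 RPKM. Those over 2-fold higher in spleen numbered 222, but 459 without the filter, 39 with at least 200 RPKM and 145 with a pseudocount of 5 RPKM. Fewer or more genes enter under another filter, and the cause was not tested otherwise. No paired analysis was possible because each tissue gave 1 library. The same holds for leaving out a replicate. Depth limits Havcr2 and Lag3 most, at about 40.1 and 22.3 reads in spleen.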
